A study of Homo sapiens with 6 samples.

Results

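The 37 genes of the human mitochondrial genome were examined in untreated WT and ARID1A-KO AID-DIvA cells, as the rows that the gene tables place on chromosome MT. They were 37 of the 57820 genes listed, and comprised 13 mRNAs, 2 rRNAs and 22 tRNAs. AID-DIvA cells are an osteosarcoma line that carries an inducible AsiSI restriction enzyme. The enzyme was not induced in the samples used here. The 3 WT and 3 ARID1A-KO samples were numbered 3 to 5 in each genotype, and the knockout had been made by electroporating Cas9 with 2 guide RNAs against ARID1A and establishing clones. The sources used here do not say how many clones the ARID1A-KO samples came from, nor whether the samples of a genotype were separate cultures, so the p-values measure the spread between these samples only. A difference between the genotypes cannot be told apart from a difference between the clones picked.

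Mitochondrial DNA is a circle of 16569 bp in the reference used here, packed with genes that have no introns and almost no spacers. POLRMT transcribes both strands into long precursors, from which most mRNAs and rRNAs are released by excision of the tRNAs that lie between them. The precursor from the heavy-strand promoter carries both rRNAs, 12 of the mRNAs and 14 of the tRNAs, and these 28 genes lie on the plus strand of the reference. The precursor from the light-strand promoter carries MT-ND6 and 8 tRNAs, and these 9 genes lie on the minus strand. All of the proteins encoded are subunits of the respiratory chain or of ATP synthase, and every protein needed to express them is encoded in the nucleus. In bulk RNA, a change in mitochondrial DNA per cell, in transcription or in decay cannot be told apart, nor can fewer cells of a kind and less RNA per cell.

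Reads were counted by strand. The reverse-stranded counts of a gene are those on its own strand, and the forward-strand counts are those on the opposite strand. Reverse-stranded counts summed to between 54512105 and 84088708 per sample, of which 3470198 to 5309088 were mitochondrial. Own-strand levels are given as CPM, counts scaled to a common library size, after adjustment by the trimmed mean of M-values (TMM), and opposite-strand levels as CPM of the forward-strand counts, scaled separately. Forward-strand counts summed to only 3202649 to 5168390 per sample, so CPM cannot be compared between the strands. Comparisons used the quasi-likelihood test of edgeR, and a gene with an adjusted p under 0.05 is called. The p-values were adjusted by Benjamini-Hochberg over all genes tested, 19599 on the own strand and, separately, 8886 on the opposite strand. ARID1A fell from 173 ± 6.67 to 25.9 ± 1.38 CPM (SD, n = 3 per genotype), as the labels state. Of the mesenchymal markers, VIM, SPARC, COL1A1, ALPL and RUNX2 were detected in every sample. VIM rose from 2354 to 4224 CPM, while SPARC fell from 757 to 410 CPM, COL1A1 from 447 to 322 CPM and ALPL from 9.68 to 1.76 CPM, and RUNX2, at 14.96 and 14.58 CPM, was not called. COL1A2, at 0.230 CPM in WT cells, BGLAP, at 0.131 CPM, and TWIST1, at 0.0104 CPM, were at or near 0. Of the markers of other cell types, EPCAM rose from 5.15 to 6.996 CPM, CDH1 fell from 1.25 to 0.540 CPM and PTPRC fell from 1.95 to 0.445 CPM. PECAM1 could not be matched to 1 row. The part of these marker changes in the results was not tested.

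The gene boundaries on which the results turn are shown in the chrM sequence of the GRCh37 assembly file, where all 37 genes had the same coordinates as in the deposited tables. The precursor from the heavy-strand promoter passes from MT-RNR2 through MT-TL1 into MT-ND1, the boundary between the rRNAs and the mRNAs. At chrM:3210-3324, plus strand, with MT-TL1 in capitals, it reads as follows.
MT-RNR2 / MT-TL1 / MT-ND1: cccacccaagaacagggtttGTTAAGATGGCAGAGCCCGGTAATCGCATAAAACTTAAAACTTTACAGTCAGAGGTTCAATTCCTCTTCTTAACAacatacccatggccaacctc

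Several mRNAs overlap, which limits how reads in the shared bases can be assigned, and some end without a whole encoded stop codon. MT-ATP8 and MT-ATP6 lie on 1 mRNA and share 46 bases, and MT-ND4L and MT-ND4 lie on another and share 7 bases. The shared bases are in capitals at chrM:8512-8587 and chrM:10745-10781. MT-ND3 and MT-ND4, the mRNAs called higher below, each end with 1 encoded base of the stop codon, in capitals at chrM:10377-10404 and chrM:12110-12137, and polyadenylation completes the codon.
MT-ATP8 / MT-ATP6: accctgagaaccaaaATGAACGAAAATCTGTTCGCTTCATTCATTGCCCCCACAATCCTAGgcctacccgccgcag
MT-ND4L / MT-ND4: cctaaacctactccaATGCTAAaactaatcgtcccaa
MT-ND3 end: ctacaaaaaggattagactgaaccgaaT
MT-ND4 end: cccgacatcattaccgggttttcctctT

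In WT cells, the mRNAs of the heavy-strand promoter were among the most abundant RNAs in the libraries and differed widely among themselves, although they come from 1 precursor. Levels of the mitochondrial genes are compared here as the TPM deposited by the authors, which is per length and scaled to the autosomal genes. The cytochrome c oxidase subunits stood highest, with MT-CO2 at 59341 ± 1467 TPM, MT-CO3 at 47610 ± 1939 TPM and MT-CO1 at 33425 ± 1293 TPM (SD, n = 3). Of the ATP synthase subunits, MT-ATP6 followed at 30196 ± 1036 TPM, while MT-ATP8 stood at 21146 ± 1337 TPM. Of the complex I subunits, MT-ND4 stood at 22529 ± 1641 TPM, MT-ND2 at 19152 ± 1696 TPM and MT-ND4L at 15555 ± 1491 TPM, and MT-CYB, the complex III subunit, at 10533 ± 441 TPM. MT-ND3 and MT-ND1 did not differ beyond their spread, at 6314 ± 558 and 6279 ± 736 TPM. MT-ND6, the mRNA of the light-strand promoter, stood at 4859 ± 1220 TPM and MT-ND5 was the lowest mRNA at 3083 ± 548 TPM, 19.2-fold below MT-CO2. The rRNAs were lower than most mRNAs, with MT-RNR2 at 17621 ± 970 TPM and MT-RNR1 at 2526 ± 113 TPM. These values hold what was left after any rRNA removal by the library kit, a step whose efficiency per sample is not given in the sources used here. The tRNA genes ranged from 0.421 TPM for MT-TS2 to 863 TPM for MT-TW, and mature tRNAs are shorter than the fragments that such libraries favour.

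**Figure D1:**
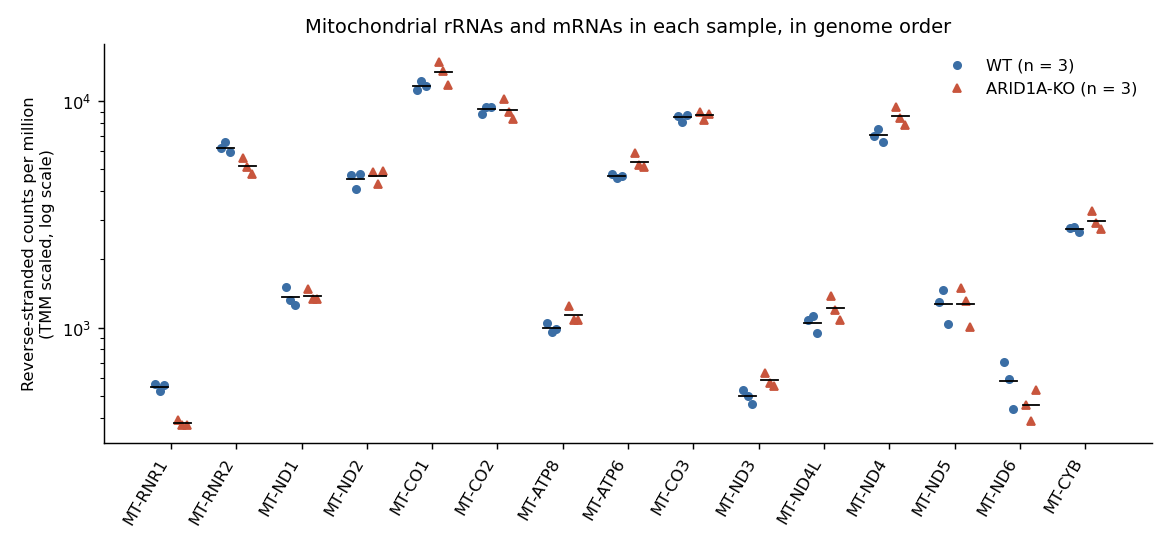
Own-strand CPM (TMM scaled, log axis) of the 2 rRNAs and 13 mRNAs in genome order, with a point for each sample and a line at each mean (circles, WT; triangles, ARID1A-KO). MT-RNR1 and MT-RNR2 were lower in all 3 ARID1A-KO samples, while MT-ATP8, MT-ATP6, MT-ND3 and MT-ND4 were higher in all 3.

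The mitochondrial share of all counts was 6.07, 6.08 and 5.85% in the WT samples and 6.99, 6.37 and 6.31% in the ARID1A-KO samples. Every ARID1A-KO sample lay above every WT sample, with means of 6.003 ± 0.129% and 6.56 ± 0.378%. With 3 samples against 3, the exact permutation test cannot give a two-sided p below 0.1, and this comparison gave p = 0.1. The rise was in the mRNAs of the heavy-strand promoter, which summed to 53379, 54293 and 53208 CPM in WT and to 63802, 57234 and 54589 CPM in ARID1A-KO cells. This sum did not overlap between the genotypes and was higher by 0.13 on the log2 scale (p = 0.1, exact permutation test), although ARID1A-KO replicate 5 exceeded the highest WT sample only narrowly. Without ARID1A-KO replicate 3, the log2 ratio was 0.060 and the mitochondrial share differed by 0.336 percentage points in place of 0.554.

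The rRNAs went the other way. Their sum was 6751, 7113 and 6520 CPM in WT and 5981, 5467 and 5145 CPM in ARID1A-KO cells, again without overlap, a log2 ratio of -0.30 (p = 0.1, exact permutation test). These counts are what any rRNA removal by the library kit left, and the part of that step in the difference was not tested. The tRNA genes together gave 64.7 ± 11.2 CPM in WT and 58.5 ± 3.09 CPM in ARID1A-KO cells, which overlapped (p = 0.5, exact permutation test).

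**Figure D2:**
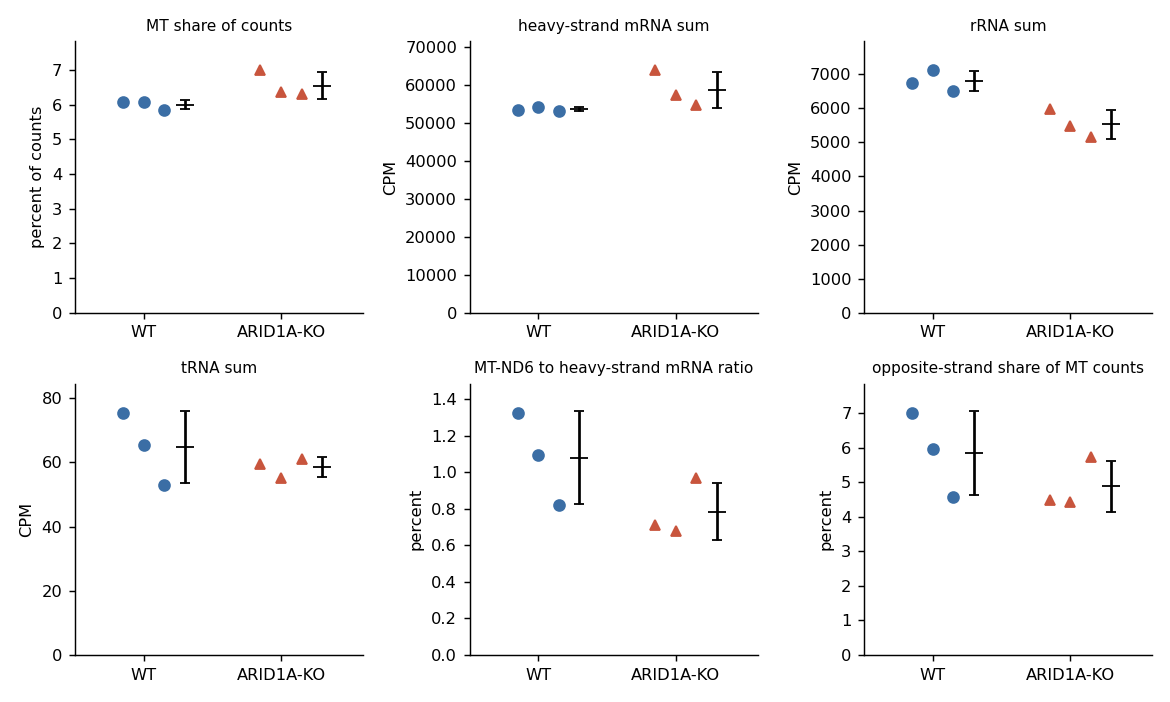
Summed levels and ratios in each sample (points) with the mean and SD of each genotype beside them, all axes from 0. The mitochondrial share and the heavy-strand mRNA sum were higher and the rRNA sum was lower in all 3 ARID1A-KO samples, while the tRNA sum, the MT-ND6 ratio and the opposite-strand share overlapped.

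Of the 37 mitochondrial genes, 31 had enough own-strand counts to be tested, and the 6 others were tRNA genes with at most 0.185 CPM in WT cells (MT-TN, MT-TG, MT-TR, MT-TH, MT-TS2 and MT-TL2). MT-ND3, MT-ND4 and MT-TE were called higher, while MT-RNR1, MT-RNR2 and MT-TW were called lower. Among all genes tested, 17.8% were called higher and 18.4% lower, so 3 of 31 in either direction was a smaller share than among all genes. The log2 changes of the 31 genes ranged from -0.57 to 0.70 with a median of -0.006, and the median over all genes was 0.007. CPM did not overlap between the genotypes for 8 of the 31, against 49.5% of all genes tested.

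MT-RNR1, the RNA of the small mitochondrial ribosomal subunit at chrM:648-1601, showed the clearest own-strand change. It measured 562, 525 and 556 CPM in WT and 391, 370 and 372 CPM in ARID1A-KO cells. Every ARID1A-KO sample lay far below every WT sample, and the samples of a genotype lay close together. The log2 change was -0.54 ± 0.061 (SE, adjusted p = 0.000171), and the call held in each of the 13 alternatives tried. MT-RNR2, the RNA of the large subunit at chrM:1671-3229, measured 6189, 6587 and 5964 CPM in WT and 5591, 5098 and 4773 CPM in ARID1A-KO cells. The groups did not overlap, but the gap between ARID1A-KO replicate 3 and WT replicate 5 was narrow, and the log2 change was -0.28 ± 0.084 (adjusted p = 0.0289). This call was lost without WT replicate 3, WT replicate 4 or ARID1A-KO replicate 4, with an adjusted p of up to 0.112. For both rRNAs, a difference between samples in rRNA removal cannot be told apart from a difference in the cells.

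Of the 12 mRNAs of the heavy-strand promoter, 10 had a positive log2 change, 2 passed the test and none was called lower. Their median log2 change was 0.15. MT-ND4, a membrane subunit of complex I at chrM:10760-12137, measured 7002, 7566 and 6608 CPM in WT and 9427, 8473 and 7819 CPM in ARID1A-KO cells. All ARID1A-KO samples lay above all WT samples, and the log2 change was 0.28 ± 0.093 (adjusted p = 0.0418). MT-ND3, a small complex I subunit at chrM:10059-10404, measured 530, 501 and 459 CPM in WT and 632, 566 and 552 CPM in ARID1A-KO cells. The groups were again apart, and the log2 change was 0.23 ± 0.079 (adjusted p = 0.0453). Both calls were lost without WT replicate 5, ARID1A-KO replicate 3 or ARID1A-KO replicate 4, that of MT-ND4 also without WT replicate 3 and that of MT-ND3 also without WT replicate 4, with an adjusted p of up to 0.155. Both were also lost with counts that ignore strand, which add the opposite-strand reads described below.

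Other mRNAs had log2 changes of similar size that did not pass the test. MT-ATP6, the subunit of the proton channel of ATP synthase, measured 4676 ± 93.0 CPM in WT and 5412 ± 405 CPM in ARID1A-KO cells without overlap (log2 change 0.21, adjusted p = 0.0614). MT-ATP8, on the same mRNA, had a log2 change of 0.18 without overlap (adjusted p = 0.0968). MT-ND4L, on the mRNA of MT-ND4, had a log2 change of 0.21 (adjusted p = 0.129). MT-CO1, the catalytic subunit of cytochrome c oxidase, measured 11725 ± 542 CPM in WT and 13437 ± 1545 CPM in ARID1A-KO cells (log2 change 0.20, adjusted p = 0.151), and the 2 groups overlapped. MT-CYB had a log2 change of 0.12 (adjusted p = 0.300). The remaining mRNAs lay close to 0, with log2 changes of 0.05 for MT-ND2, 0.03 for MT-CO3, 0.02 for MT-ND1, -0.006 for MT-CO2 and -0.001 for MT-ND5.

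The composition of the mRNA pool was compared within samples, where 3 against 3 leaves no share able to pass the test. Within the counts of the 13 mRNAs, MT-ND4 took 12.9, 13.8 and 12.3% in WT and 14.7, 14.7 and 14.2% in ARID1A-KO cells. MT-ATP6 went from a mean of 8.63% to 9.18% and MT-ND3 from 0.916% to 0.989%, each without overlap. MT-CO2 went the other way, with 16.3, 17.2 and 17.6% in WT and 16.0, 15.6 and 15.2% in ARID1A-KO cells. Each of these 4 gave p = 0.1 in the exact permutation test, and 0.325 after adjustment over the 13 shares. The other 9 shares overlapped between the genotypes. Over the 14 rRNAs and mRNAs of the plus strand, the log2 change and the start position, which orders the genes from the heavy-strand promoter, had a Spearman rho of 0.56, which fell to 0.30 over the 12 mRNAs alone. These points are genes of 1 precursor in the same libraries, and the value is a description.

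**Figure D3:**
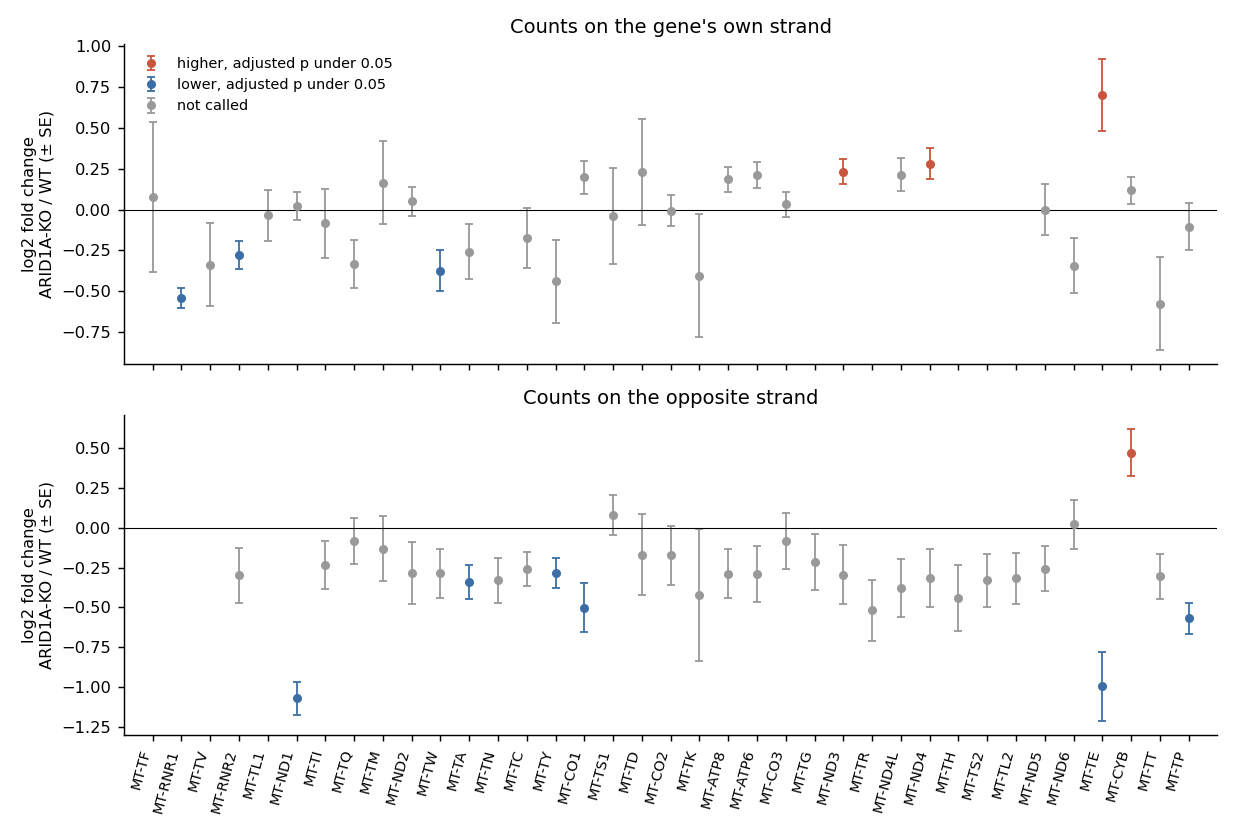
Log2 fold change (ARID1A-KO over WT) ± SE of each tested mitochondrial gene in genome order, from own-strand counts (top) and opposite-strand counts (bottom). On the own strand the 2 rRNAs and MT-TW were called lower and MT-ND3, MT-ND4 and MT-TE higher, and on the opposite strand 30 of 33 values lie below 0, with MT-ND1 and MT-TE lowest.

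MT-ND6, the complex I subunit encoded on the other strand at chrM:14149-14673, varied more than any other mRNA in WT cells. It measured 707, 593 and 436 CPM in WT and 453, 387 and 527 CPM in ARID1A-KO cells. The groups overlapped, since WT replicate 5 lay below ARID1A-KO replicates 3 and 5, and the log2 change of -0.34 ± 0.17 did not pass the test (adjusted p = 0.139). Set against the heavy-strand mRNAs of the same sample, a ratio that no library scaling touches, MT-ND6 came to 1.33, 1.09 and 0.819% in WT and 0.711, 0.677 and 0.966% in ARID1A-KO cells (p = 0.2, exact permutation test). MT-ND6 differs from the other mRNAs in sequence as well, with 35.6% G and 7.05% C, where the other 12 ranged from 6.28 to 16.2% G and from 29.5 to 36.0% C.

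Among the tRNA genes, 16 were tested, 1 was called higher and 1 lower. MT-TE, the glutamate tRNA gene upstream of MT-ND6 on the light-strand precursor, measured 3.31, 3.17 and 1.72 CPM in WT and 4.32, 4.55 and 4.53 CPM in ARID1A-KO cells (log2 change 0.70 ± 0.22, adjusted p = 0.0332). All ARID1A-KO samples lay above all WT samples. The call was lost without any 1 of the ARID1A-KO samples, with an adjusted p of up to 0.0851, and with unstranded counts. MT-TW, the tryptophan tRNA gene between MT-ND2 and MT-TA, measured 15.5, 13.5 and 10.9 CPM in WT and 10.6, 9.79 and 10.4 CPM in ARID1A-KO cells (log2 change -0.37 ± 0.13, adjusted p = 0.0436). The groups were separated by a small gap, and the call held in only 1 of the 6 fits that left out a sample, the one without WT replicate 5. The other tRNA genes with the highest levels gave no call, with log2 changes of -0.04 for MT-TL1, -0.33 for MT-TQ and -0.10 for MT-TP. MT-TL1 lies next to MT-RNR2 on the boundary printed above, but its value did not follow that of the rRNA past the threshold (adjusted p = 0.885). MT-TE and MT-TP, the proline tRNA gene, are shown on their minus strand and MT-TW on the plus strand, at chrM:14662-14754, chrM:15944-16035 and chrM:5500-5591 with the gene in capitals, because their calls differ between the strands.
MT-TE: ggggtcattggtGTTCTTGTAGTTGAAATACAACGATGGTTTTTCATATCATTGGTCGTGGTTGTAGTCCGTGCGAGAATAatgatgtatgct
MT-TP: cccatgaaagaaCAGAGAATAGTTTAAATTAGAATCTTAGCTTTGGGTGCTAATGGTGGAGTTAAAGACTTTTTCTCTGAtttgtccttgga
MT-TW: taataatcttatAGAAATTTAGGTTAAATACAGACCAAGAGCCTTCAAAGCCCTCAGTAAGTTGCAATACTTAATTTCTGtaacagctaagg

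Because both strands of mitochondrial DNA are transcribed along their whole length, the counts on the strand opposite to each gene were examined as well. The strands were well separated in these libraries. MT-RNR1 had 0.0193% and MT-RNR2 0.0597% of its counts on the opposite strand in WT cells, which bounds the leak from own-strand reads into the other strand at these genes. For MT-RNR1 these shares rest on 3 to 9 counts per sample. Far larger shares were seen elsewhere. MT-ND5 had more opposite-strand than own-strand counts, at 57.0 ± 4.07% in WT and 53.1 ± 8.44% in ARID1A-KO cells. Opposite-strand counts on MT-ND5 made up 41.6 to 46.3% of all mitochondrial opposite-strand counts. In WT cells, 18 of the 37 genes had a mean of opposite-strand counts above that of own-strand counts, and 17 of these were tRNA genes.

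The location of these counts follows the gene order. MT-ND5 and MT-ND6 lie end to end on opposite strands, so that the light-strand precursor runs on from MT-ND6 into the opposite strand of MT-ND5, and the heavy-strand RNA runs on from MT-ND5 into the opposite strand of MT-ND6. Opposite-strand counts on MT-ND5 were 2.96, 2.96 and 2.91 times the own-strand counts on MT-ND6 in WT cells and 3.04, 3.19 and 3.22 times in ARID1A-KO cells, a ratio chosen after its values were seen. Opposite-strand counts on MT-ND6 were 24.2 to 26.3% of the own-strand counts on MT-ND5. MT-TS1, a minus-strand tRNA gene that lies directly behind MT-CO1, had 98.7% of its counts on the opposite strand in WT cells, and these came to 1.79 to 2.23% of the own-strand counts of MT-CO1. One read pair can be counted for both genes at such a boundary, since the strands were counted in separate runs. Both boundaries are shown on the plus strand, at chrM:14119-14178 with MT-ND6 in capitals and at chrM:7416-7514 with MT-TS1 in capitals, so that the gene in capitals is read from right to left, as the complement.
MT-ND5 / MT-ND6: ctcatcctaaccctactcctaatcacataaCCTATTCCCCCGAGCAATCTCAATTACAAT
MT-CO1 / MT-TS1: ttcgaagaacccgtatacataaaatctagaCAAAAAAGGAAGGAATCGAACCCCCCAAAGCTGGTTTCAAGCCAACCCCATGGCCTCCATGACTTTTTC

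**Figure D4:**
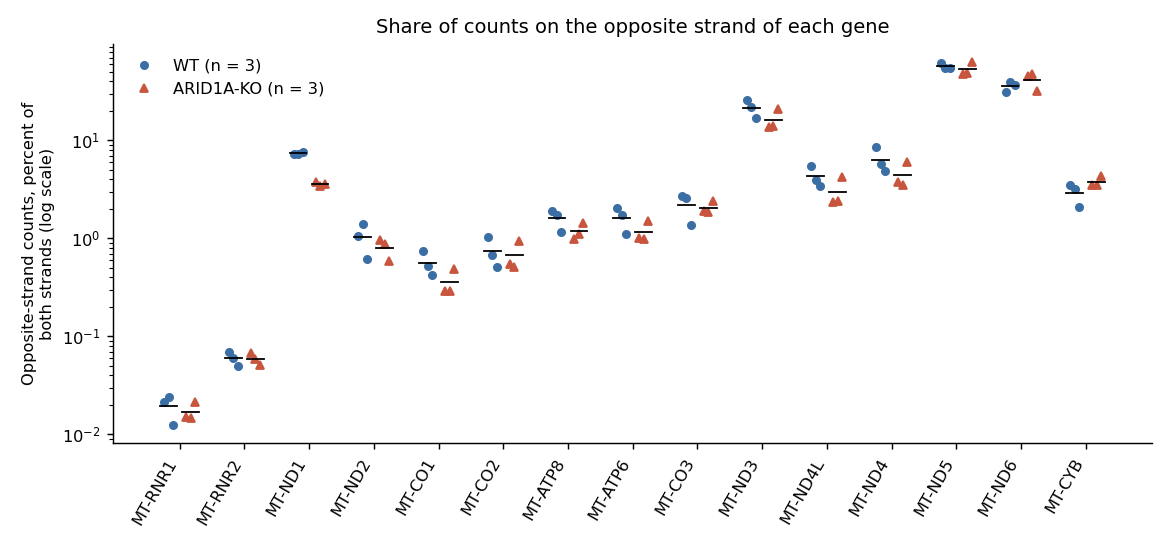
Percent of the counts of each rRNA and mRNA that lie on its opposite strand (log axis), with a point for each sample and a line at each mean. The rRNAs lie below 0.1%, MT-ND5 and MT-ND6 above 30%, and MT-ND1 is separated between the genotypes with 7.37% in WT and 3.61% in ARID1A-KO cells.

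MT-ND1, the complex I subunit just behind the rRNAs at chrM:3307-4262, had the largest opposite-strand change. Its opposite-strand counts measured 1987, 1776 and 1782 CPM in WT and 999, 809 and 832 CPM in ARID1A-KO cells. The lowest WT sample was far above the highest ARID1A-KO sample, and the log2 change was -1.07 ± 0.10 (adjusted p = 1.593e-06). The opposite-strand share of MT-ND1 was 7.37 ± 0.138% in WT and 3.61 ± 0.185% in ARID1A-KO cells, while its own-strand counts changed by 0.02 on the log2 scale. The call held in all 6 fits that left out a sample.

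Of the 33 mitochondrial genes with enough opposite-strand counts to be tested, 6 were called lower and 1 higher. Among the 8886 genes tested on the opposite strand, 10.2% were called lower and 10.1% higher. A negative log2 change was seen in 30 of the 33, with a median of -0.29, where the median over all genes tested was 0.011. These genes are neighbours on shared precursors in the same libraries, so the count is a description. It combines light-strand RNA at the plus-strand genes with heavy-strand RNA at the minus-strand genes. MT-TE, called higher on its own strand, fell on the opposite strand from 279, 147 and 175 CPM to 96.2, 70.7 and 132 CPM (log2 change -0.99 ± 0.22, adjusted p = 0.00386). The opposite strand held 80.6 ± 6.60% of all MT-TE counts in WT and 56.0 ± 7.97% in ARID1A-KO cells. MT-TP fell from 790, 725 and 803 CPM to 580, 497 and 488 CPM (log2 change -0.57 ± 0.097, adjusted p = 0.000599). For both genes the groups did not overlap, and both calls held without any 1 sample. The opposite strand of these minus-strand genes is that of MT-CYB, which lies between them. MT-CYB itself had a log2 change of 0.12 there, which was not called.

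The other opposite-strand calls were less firm. MT-CO1 fell from 1120 ± 277 to 791 ± 144 CPM (log2 change -0.50, adjusted p = 0.0292) and lost the call without WT replicate 3, ARID1A-KO replicate 3 or ARID1A-KO replicate 4. MT-TA fell from 230 ± 29.5 to 182 ± 8.40 CPM (adjusted p = 0.0369) and MT-TY from 861 ± 71.9 to 706 ± 27.7 CPM (adjusted p = 0.0385), and both kept the call in only 1 of the 6 fits that left out a sample, the one without WT replicate 5. The exception in direction was MT-CYB, whose opposite-strand counts measured 1663, 1568 and 989 CPM in WT and 2031, 1789 and 2030 CPM in ARID1A-KO cells (log2 change 0.47 ± 0.15, adjusted p = 0.0309). That call was lost without WT replicate 5 or ARID1A-KO replicate 3.

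The samples of a genotype differed in how much opposite-strand RNA they held. The opposite-strand share of all mitochondrial counts was 7.02, 5.96 and 4.58% in WT and 4.50, 4.42 and 5.72% in ARID1A-KO cells (p = 0.2, exact permutation test). WT replicate 5 lay among the ARID1A-KO samples and ARID1A-KO replicate 5 among the WT samples, as they did for MT-ND6. Without WT replicate 5, 15 of the genes were called lower on the opposite strand, and without ARID1A-KO replicate 5, 11 were. Leaving out a sample that lies with the other genotype widens the difference by itself. The share called among all genes in these fits is not given here, so the counts show only the dependence on single samples. Without WT replicate 3, ARID1A-KO replicate 3 or ARID1A-KO replicate 4, the number was 3. MT-ND4 likewise overlapped between the genotypes, with opposite-strand counts of 10873, 7911 and 5881 CPM in WT and 6257, 5252 and 8343 CPM in ARID1A-KO cells, and no call (adjusted p = 0.256). These were 8.51, 5.78 and 4.85% of the MT-ND4 counts on both strands in WT and 3.73, 3.51 and 6.02% in ARID1A-KO cells.

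The nuclear genes for mitochondrial gene expression were compared in the same test. Of 65 genes for transcription, replication, RNA processing, RNA modification and transcriptional regulation, 16 were called higher and 6 lower, a share of calls to set beside the 17.8% and 18.4% among all genes. Their median log2 change was 0.07. Genes that lie near each other were in places shifted together, so the median log2 change of the other tested genes within 5 Mb is given beside most of the called genes, and its part in the calls was not tested.

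Among the 9 transcription genes, 4 were called higher and none lower, where 17.8% and 18.4% of all genes were. POLRMT, the mitochondrial RNA polymerase, measured 88.5, 117 and 108 CPM in WT and 188, 214 and 179 CPM in ARID1A-KO cells (log2 change 0.89 ± 0.11, adjusted p = 0.000253). The groups were far apart, and the genes around POLRMT had a median log2 change of 0.21. TFAM, which bends promoter DNA for initiation and packages the genome, measured 132, 124 and 115 CPM in WT and 160, 150 and 150 CPM in ARID1A-KO cells (log2 change 0.31 ± 0.066, adjusted p = 0.00591), where the genes around it had a median of 0.19. MTERF2, of the mitochondrial termination factor family, had a log2 change of 0.54 (adjusted p = 0.00879, median around it 0.02), and TOP1MT, the mitochondrial topoisomerase I, one of 0.47 (adjusted p = 0.00155, median around it 0.21). All 4 calls held without any 1 sample. TFB2M, the initiation factor that melts the promoter, and TEFM, the elongation factor, gave log2 changes of 0.05 and 0.07, and MTERF1, which binds within MT-TL1 behind the rRNA genes and was named after its value was seen, one of 0.17 (adjusted p = 0.130).

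Among the 11 replication genes, 2 were called higher and 1 lower, where 17.8% and 18.4% of all genes were. PRIMPOL, a primase that restarts stalled forks, fell from 11.4 ± 0.171 to 7.26 ± 0.304 CPM (log2 change -0.65, adjusted p = 0.00049), while the genes around it had a median of 0.06. DNA2, a helicase and nuclease, had a log2 change of 0.33 (adjusted p = 0.00942), below the median of 0.42 around it, and TOP3A, which separates daughter circles, one of 0.24 (adjusted p = 0.0417). POLG, the DNA polymerase, and TWNK, the helicase, were not called, with log2 changes of 0.07 and 0.18. The call of TOP3A was lost in 4 of the 6 fits that left out a sample, those without WT replicate 3, WT replicate 5, ARID1A-KO replicate 3 or ARID1A-KO replicate 4.

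Of the 19 RNA processing genes, 17 gave no call. SUPV3L1, the helicase of the mitochondrial degradosome, rose from 51.3 ± 4.11 to 74.1 ± 5.58 CPM (log2 change 0.53, adjusted p = 0.000942), where the genes around it had a median of 0.40. Its partner nuclease PNPT1 was not called (log2 change 0.07, adjusted p = 0.464). REXO2, which degrades very short RNAs, fell from 158 ± 3.97 to 137 ± 3.92 CPM (adjusted p = 0.0199), a call lost without WT replicate 5 or ARID1A-KO replicate 4. The mRNA-stabilizing pair LRPPRC and SLIRP gave log2 changes of 0.04 and -0.15 (adjusted p = 0.689 and 0.0926), the tRNA 3-prime nuclease ELAC2 one of 0.10, and the poly(A) polymerase MTPAP one of 0.03.

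**Figure D5:**
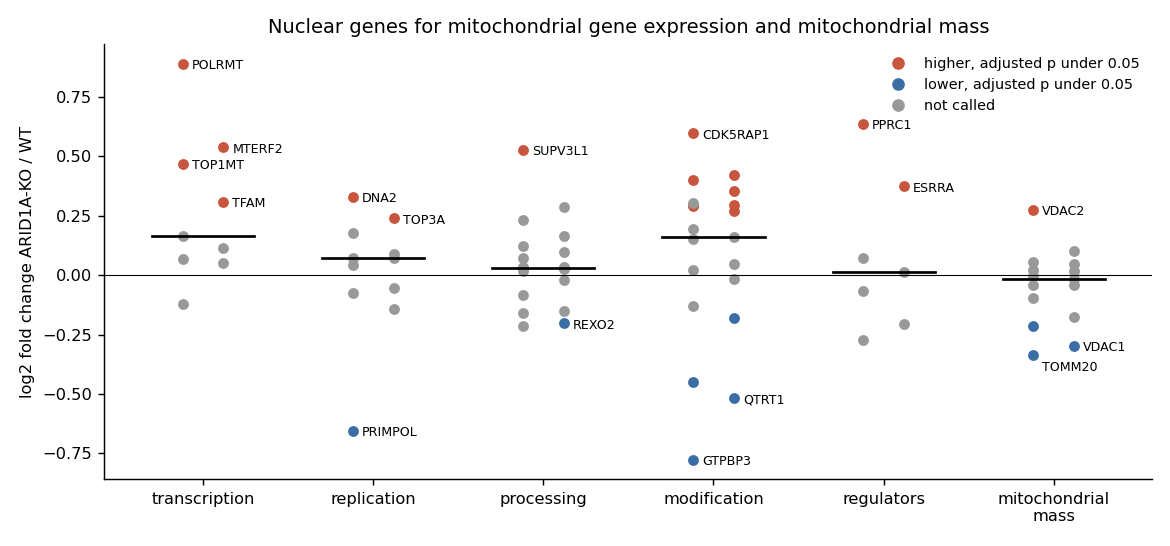
Log2 fold change (ARID1A-KO over WT) of each nuclear gene listed for mitochondrial transcription, replication, RNA processing, RNA modification, regulation and mass (points), with the median of each list as a line. POLRMT had the largest rise at 0.89, and GTPBP3 the largest fall at -0.78.

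Of the 19 RNA modification genes, 7 were called higher and 4 lower, where 17.8% and 18.4% of all genes were. CDK5RAP1, which modifies several mitochondrial tRNAs, had a log2 change of 0.60 (adjusted p = 0.000126). GTPBP3, which modifies the wobble base of mitochondrial tRNAs, fell from 49.97 ± 2.56 to 29.2 ± 1.43 CPM (log2 change -0.78, adjusted p = 4.357e-05), where the genes around it had a median of -0.36. QTRT1, a subunit of the queuosine transferase, had a log2 change of -0.52 (adjusted p = 0.0038, median around it -0.28). MRM1, MRM3 and NSUN4, which modify the rRNAs and were named after their values were seen, were called higher with log2 changes of 0.42, 0.29 and 0.40. Other listed genes that modify the rRNAs were not called. Their log2 changes were -0.02 for MRM2, 0.02 for METTL15, 0.05 for TRMT61B, 0.15 for RPUSD4, 0.19 for TFB1M and 0.30 for TRMT2B.

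Of the 7 regulators, PPRC1, a coactivator of the PGC-1 family, had a log2 change of 0.64 (adjusted p = 0.000167), where the genes around it had a median of 0.38, and ESRRA, a nuclear receptor that acts with PGC-1, one of 0.37 (adjusted p = 0.0121), a call lost without ARID1A-KO replicate 4. PPARGC1A, which encodes PGC-1 alpha, was barely expressed, at 0.739 CPM in WT and 0.611 CPM in ARID1A-KO cells. NRF1, which drives many nuclear genes for mitochondria, had a log2 change of -0.20 and missed the threshold (adjusted p = 0.0571).

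Of 15 genes often read as a measure of mitochondrial mass, 1 was called higher and 3 lower, where 17.8% and 18.4% of all genes were, and the median log2 change was -0.02. VDAC2 had a log2 change of 0.28 and VDAC1, the companion porin of the outer membrane, one of -0.30, while TOMM20, the import receptor, fell from 202 ± 10.9 to 160 ± 5.25 CPM (adjusted p = 0.00288). The call of VDAC2 was lost without ARID1A-KO replicate 4 and that of VDAC1 without WT replicate 5. The median log2 changes of the other genes within 5 Mb were 0.30 around VDAC2, -0.11 around VDAC1 and 0.05 around TOMM20. Their part in the calls was not tested.

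The nuclear subunits of the same complexes gave calls in both directions. Of the 77 listed, 11 were called higher and 10 lower, smaller shares than the 17.8% and 18.4% among all genes, with a median log2 change of 0.03. In complex I, which takes 7 mitochondrial subunits, 5 of 37 were higher and 7 lower, and NDUFS7 had a log2 change of 0.60 and NDUFB4 one of -0.47. In complex III, UQCR11 had a log2 change of 0.64, and in complex IV, COX4I1 had one of 0.42 and COX7A2 one of -0.31. The median log2 changes of the other genes within 5 Mb were 0.14 around NDUFS7, -0.43 around NDUFB4 and 0.09 around UQCR11. They were 0.34 around COX4I1 and -0.31 around COX7A2, and their part in the calls was not tested. In ATP synthase, ATP5MC1, a gene for the c subunit of the rotor ring, fell from 105 ± 8.51 to 49.7 ± 4.11 CPM (log2 change -1.08, adjusted p = 2.19e-05). Its mitochondrial partner MT-ATP6 was not called (log2 change 0.21, adjusted p = 0.0614). The genes around ATP5MC1 had a median log2 change of 0.04. ATP5MC2 and ATP5MC3, which also encode the c subunit, had more counts in WT cells, at 175 and 211 CPM, which are not scaled to gene length. Neither was called, with log2 changes of -0.14 and -0.10 (adjusted p = 0.163 and 0.243). Of the 75 mitochondrial ribosomal protein genes, 9 were called higher and 10 lower, again smaller shares than among all genes, with a median log2 change of 0.04.

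Copies of mitochondrial genes in the nuclear genome can take reads that belong to the mitochondrial genes. The tables list 188 rows whose symbols mark such a copy, and any copies under other names were not counted. Together these rows held 0.960 to 1.119% of the mitochondrial counts, and 5 were tested. The counts were concentrated in a few copies, so the part relative to a single gene can be larger. MTATP6P1, at chr1:569076-569756 and 98.5% identical to MT-ATP6 over 681 bases, measured 476 ± 12.8 CPM in WT and 585 ± 41.6 CPM in ARID1A-KO cells (log2 change 0.30, adjusted p = 0.00884). MT-ATP6 measured 4676 and 5412 CPM, with a log2 change of 0.21 in the same test. MTND2P28, at chr1:565020-566063 and 98.2% identical to MT-ND2, measured 114 and 120 CPM (log2 change 0.07, adjusted p = 0.509), against 4538 and 4697 CPM for MT-ND2. MTND4P12, the copy of MT-ND4 with the highest level, is 95.6% identical to it and measured 0.463 CPM in WT and 0.673 CPM in ARID1A-KO cells, against 7059 and 8573 CPM for MT-ND4.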

How the data were processed

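RNA of untreated AID-DIvA cells was measured in 6 samples, 3 per genotype, grouped by their labels. Libraries came from total RNA with the TruSeq Stranded Total RNA kit and were read as pairs of 100 bases, although the labels give the molecule as polyA RNA. The authors mapped the reads to hg19/GRCh37 with STAR (Roddy workflow). The gene counts that the authors deposited came from featureCounts, by strand and not normalized. The TPM values, treated as a score because the authors scaled them to the autosomal genes, served to compare levels between genes and as an alternative. How reads with several alignments were counted is not given in the sources used here.

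Reverse-stranded and forward-strand counts of all genes were fitted separately with edgeR 4.0.16 in R 4.3.3 (filterByExpr, TMM scaling, quasi-likelihood test without covariates, Benjamini-Hochberg adjustment). Standard errors were derived from the F statistic. Sums, ratios and shares were compared by two-sided exact permutation tests (SciPy 1.17.1, Python 3.11.15). The lowest own-strand count of any mitochondrial mRNA was 21288, so counting error is small there, but not for tRNA genes, for opposite-strand counts of the rRNAs or for nuclear genes of low level. The common biological coefficient of variation was 0.111. The fits were tested on simulated data.

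Members and nuclear lists were chosen with earlier results of these data known. All mRNAs and rRNAs, the 5 tRNA genes with the highest mean CPM and called tRNA genes could be named, with fixed nuclear genes and the 3 largest called changes per list. Alternatives were unstranded counts, RLE or nuclear scaling, DESeq2 1.42.0, a minimum of 10 counts per sample, no filter, a replicate block, an adjusted p under 0.01 and leaving out each sample.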

Additional observations from a re-analysis of the deposited data

How the results depend on the processing

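With counts that ignore strand, 0 mitochondrial genes were called higher and 5 lower, against 3 and 3 by strand, and without a filter on low counts 5 were called lower. At an adjusted p under 0.01 from edgeR, 0 were called higher and 1 lower on the own strand, and 0 higher and 3 lower on the opposite strand, against 1 and 6. Leaving out each sample gave 0 to 5 own-strand genes called higher (0 when ARID1A-KO replicate 3 or 4 was omitted, 1 when WT replicate 5 was and 5 when ARID1A-KO replicate 5 was) and 1 to 5 called lower (1 when WT replicate 3 or ARID1A-KO replicate 4 was omitted, 5 when WT replicate 5 was). On the opposite strand it gave 0 to 1 called higher and 3 to 15 called lower. The shares called among all genes in these fits are not given here. The mRNA shares without overlap, 4 of 13, numbered 4 to 9 when a sample was left out. The causes were not tested, beyond the fewer samples in each such fit. RLE scaling, scaling to nuclear genes, DESeq2 and at least 10 counts in every sample left each of these counts within 1.5 times its value, and no called gene changed direction, while some uncalled values near 0 changed sign. The sums, ratios and shares kept their direction in every alternative.

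Deviations of samples with the same number correlated at -0.166, 0.236 and 0.161, so the numbers were not taken to pair the samples, and not every sample correlated best with its own number. With the replicate block, 3 genes were called higher and 3 lower on the own strand, 1 higher and 8 lower on the opposite strand, and 7 mRNA shares had differences of 1 sign in all pairs. The counts of nuclear genes for mitochondrial expression stayed within 1.5 times of 16 higher and 6 lower in every alternative. Depth limits the tRNA genes, 6 of which could not be tested.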
